A study of Homo sapiens with 6 samples.

Results

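Small nucleolar RNA (snoRNA) host genes are transcribed into long RNAs that are spliced, and snoRNAs are released from their introns. The 10 host genes described here, GAS5, SNHG1, SNHG3, SNHG5, SNHG6, SNHG7, SNHG8, SNHG12, SNHG15 and ZFAS1, were chosen by name as long noncoding hosts. All 10 were found among the 58735 genes of the deposited expression table. RNA was sequenced from HEK293, a human line derived from embryonic kidney, with stable expression of tensin 2, a focal adhesion protein, in one of 2 mutant forms. In the Y483E line the tyrosine named by that number was replaced by glutamate, which is used to resemble a phosphorylated residue. In the Y483F line it was replaced by phenylalanine, which cannot be phosphorylated. Each line had 3 libraries, from poly-T selected RNA, and no untreated or wild-type cells were analysed here. In each line the libraries carry the numbers 1, 4 and 5, called replicates 1, 2 and 3 below, and no label explains these numbers. The labels name 2 lines and no clones, so what the mutation did and how the 2 lines differ for other reasons cannot be told apart. The titles call the replicates biological but do not say whether they came from separate cultures, so the p-values rest on the spread between these samples, whatever it holds.

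The spliced host transcripts code for no known conserved protein. Many of them begin with a run of pyrimidines (a terminal oligopyrimidine or TOP start, as in ribosomal protein mRNAs), are taken up by ribosomes and are then degraded by nonsense-mediated decay. Their snoRNAs act in the nucleolus, where box C/D snoRNAs guide 2′-O-methylation and box H/ACA snoRNAs guide pseudouridylation of ribosomal RNA. Mature snoRNAs carry no poly(A) tail, so a poly-T library reads the host transcript far better than its product.

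Reads summed to between 17204498 and 23284592 per library, and the 10 hosts took 0.0672 to 0.0764% of them. The label of the cells was compared with markers of HEK293. The 7 marker genes were detected in every library. Levels are in FPKM, fragments scaled for gene length and for a library total in proportion to the authors' size factor. VIM had 59.7 to 71.5 FPKM and NEFL 38.0 to 49.7 FPKM. PAX2 and LHX1 lay between 0.673 and 1.34 FPKM and NEFM between 0.200 and 0.314 FPKM. Of 7 markers of blood, liver, endothelium and fibroblasts, PTPRC and CD3E had 0 reads, and COL1A1, the highest, had 0.612 to 0.776 FPKM.

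Promoter sequences were taken from RefSeq (GRCh38.p14), whose table matched 8 of the 10 hosts; SNHG6 and SNHG15 had no entry. The windows below run over 30 bases, 8 before and 22 after the RefSeq start, and are shown because a TOP start is read from the first bases of a transcript. Capitals mark the run of C and T, led by C and at least 3 bases long, whose first base lies nearest to that start.
SNHG5 promoter window, chr6:85678712-85678741, minus strand: acttcggtCTTTTacgtcggccttcgcgag
SNHG7 promoter window, chr9:136728163-136728192, minus strand: ttctcgtCCTCTgcgtgcgccggaggctgc
SNHG8 promoter window, chr4:118278754-118278783, plus strand: cggCCTTTCacattcgggaagcgtcgggat
SNHG12 promoter window, chr1:28581852-28581881, minus strand: ttcagcgCCCTTTCTCCCCgccgcattccc
ZFAS1 promoter window, chr20:49278634-49278663, plus strand: cattcgttCTTTCgcgtctgcggtgcccgg
SNHG1 promoter window, chr11:62855864-62855893, minus strand: gattcgttCTCatttttctactgctcgtgg
SNHG3 promoter window, chr1:28505935-28505964, plus strand: gagtttctgattCTCTaactgcgcatgctt
GAS5 promoter window, chr1:173869024-173869053, minus strand: atgaattcagatgtgtttattttggagCCT
A run of at least 5 bases whose first base lay within 5 bases of the start was found in 5 of 8 hosts (SNHG5, SNHG7, SNHG8, SNHG12 and ZFAS1), and in 16.4% of 35093 RefSeq promoters. The run of SNHG12 was 12 bases long. Those of SNHG1 and SNHG3, at the RefSeq start or 5 bases past it, had 3 and 4 bases. The windows of GAS5 and SNHG3 lie wholly upstream of these genes as annotated with the FPKM values. That of SNHG3 covers the first bases of RCC1, a neighbour described below. For GAS5 and SNHG3 the search thus does not show the start of the gene whose reads were counted. The windows of SNHG12 (annotated start 28583132) and ZFAS1 (annotated start 49278178) lie far inside these genes, so their runs are not at the annotated start either. Those of SNHG1, SNHG5 and SNHG8 also lie inside the gene, nearer to its annotated start. Only the window of SNHG7 covers the annotated start. In the 300 bases from 250 before to 50 after the start, searched on both strands, TATATAA occurred in 3 of 8 hosts (SNHG5, SNHG12 and ZFAS1) and in 2.57% of all promoters. TATAAA, which can overlap it, occurred in 2 (SNHG1 and SNHG7) and in 11.5% of all promoters, and CACGTG in 1 (SNHG7) and 7.26%. TGATGCAA occurred in 0 of 8 and 0.866%, and CCGGAAG in 0 of 8 and 10.3%. A match describes the letters of the window and not a bound site, and the RefSeq start need not be the one used in these cells.

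The table placed 25 snoRNA gene records within the boundaries of the hosts, of which 12 were named as box C/D, 11 as box H/ACA and 2 by other identifiers. The records lie at 22 separate loci, since SNORA17B and SNORA16A are each listed under a pair of gene identifiers and RF00560 overlaps SNORA17A. SNHG1 held 7 loci, SNHG12 held 4, ZFAS1 held 3, and SNHG7 and SNHG3 held 2 each. SNHG5, SNHG6, SNHG8 and SNHG15 held 1 each, and 0 of the 25 records lay in GAS5. These counts cover only records classed as snoRNA genes, on the strand of the host and within its boundaries. They are not a full list of the snoRNAs of each host, and the 0 does not mean that GAS5 carries none. Box C/D snoRNAs are shown for SNHG1 (SNORD25, SNORD27 and SNORD30) and SNHG5 (SNORD50B), the hosts with the clearest differences between the lines. Their first and last 30 bases are given from GENCODE 29 transcripts (GRCh38). Only the box C/D records of these hosts with TGATGA in the first 25 bases are shown. SNORD22, SNORD26 and SNORD28 of SNHG1 lack it there and are left out. Capitals mark the C box letters TGATGA near the 5′ end and the D box letters CTGA near the 3′ end, the elements at which box C/D proteins assemble.
SNORD25, first 30 bases of chr11:62855564-62855632, minus strand: cttcctaTGATGAggaccttttcacagacc
SNORD25, last 30 bases: ctccgtgaggataaataactCTGAggagat
SNORD27, first 30 bases of chr11:62855012-62855083, minus strand: actccaTGATGAacacaaaatgacaagcat
SNORD27, last 30 bases: tcaagtgatgtcatcttactaCTGAgaagt
SNORD30, first 30 bases of chr11:62853663-62853732, minus strand: gtttgTGATGActtacatggaatctcgttc
SNORD30, last 30 bases: ttgctgttgagactctgaaatCTGAttttc
SNORD50B, first 30 bases of chr6:85677589-85677658, minus strand: aatcaaTGATGAaacctatcccgaagctga
SNORD50B, last 30 bases: aaaaataagtacggattcggcttCTGAgat
Among the 11 box C/D snoRNAs searched, TGATGA occurred in the first 25 bases of 7, and CTGA in the last 20 bases of 11. Among the 11 box H/ACA records, at 9 loci, 10 had ACA in their last 10 bases. The last 30 bases of SNORD99 of SNHG12 and SNORA73B of SNHG3 are shown because these 2 products had the most reads, with SNORA73A beside them, and with the D box or the ACA in capitals.
SNORD99, last 30 bases of chr1:28578749-28578822, minus strand: agaaatgcggatatgggaCTGAgaccagct
SNORA73B, last 30 bases of chr1:28508559-28508762, plus strand: ctggggagacaaaccatgcaggaaACAtat
SNORA73A, last 30 bases of chr1:28507366-28507571, plus strand: ctggggagacaaaccatgcaggaaACAgcc
SNORA73A and SNORA73B, the U17 RNAs that act in the cleavage of precursor ribosomal RNA, were identical at 192 of 206 aligned positions (93.2%), so a read could fit both.

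Among the hosts SNHG5 was the most abundant. Levels per length are compared here in FPKM, over the 6 libraries. SNHG5 averaged 64.1 FPKM, the third highest of 13812 lincRNA, antisense and processed-transcript genes in the table. SNHG6 (31.4 FPKM), SNHG7 (29.2), GAS5 (29.0) and SNHG8 (27.6) followed, and then SNHG1 (21.2), SNHG15 (15.9), SNHG3 (13.6), ZFAS1 (9.07) and SNHG12 (6.39). Only at 3 of these steps did the ranges of the neighbouring genes not overlap: between SNHG5 and SNHG6, between SNHG1 and SNHG15, and between SNHG3 and ZFAS1. Within a library, SNHG8 lay above SNHG1 and SNHG15 above SNHG3 in 6 of 6 libraries, although these ranges met. SNHG6, SNHG7, GAS5 and SNHG8 changed places from library to library. The gene lengths in the table equalled the merged exons of all GENCODE 29 transcripts for 10 of 10 hosts, so annotated retained-intron transcripts lengthen the divisor of FPKM. GAS5 had 19 retained-intron transcripts among 29, SNHG1 had 13 among 25 and SNHG12 had 10 among 17. The percent of exonic bases shared with other genes also differed, from 1.16% in GAS5 to 46.9% in ZFAS1. Its part in the order of the hosts was not tested.

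**Figure D1:**
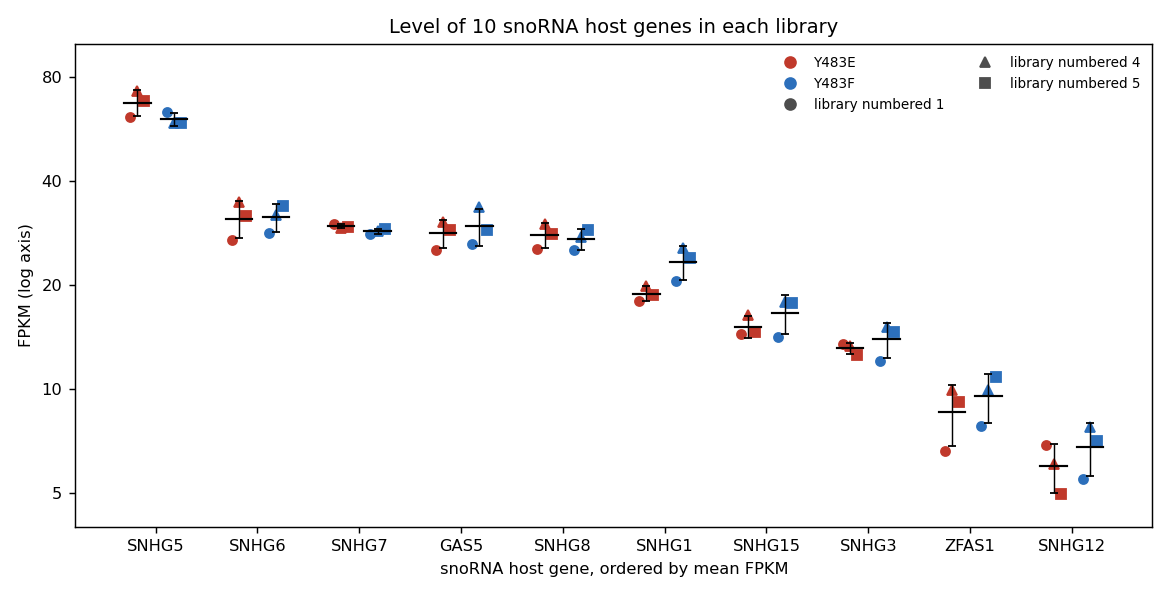
FPKM (log axis) of the 10 hosts in each library, with Y483E in red and Y483F in blue; symbols give the library number, horizontal lines the mean and bars the SD of 3 libraries. SNHG5 averaged 64.1 FPKM and SNHG12 6.39 FPKM, and only SNHG1 and SNHG7 had lines whose points did not overlap.

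No host passed the threshold between the lines over all 6 libraries in limma or edgeR. Limma on log2(FPKM + 1), with an adjusted p of 0.05 over all genes that averaged 1 FPKM or more, called 0 of 12833 genes (0%), with 1566 at an unadjusted p under 0.05. EdgeR on reads recovered from the FPKM values called 7 of 15992 genes (0.0438%) and 0 of the 10 hosts. The median log2 difference of the hosts was -0.069, beside 0.0070 over all genes tested, with 3 hosts above 0 and 7 below. In bulk RNA, fewer cells carrying a transcript and less of it per cell cannot be told apart. For 2 of 10 hosts the values of the lines did not overlap, SNHG1 with Y483E lower and SNHG7 with Y483E higher. That held for 17.1% of all genes tested, 7.37% with Y483E lower and 9.72% with Y483E higher. For each of the 2 the exact permutation p was 0.1, the smallest that 3 libraries against 3 can give.

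SNHG1 (ENSG00000255717, chr11:62851988-62855914, minus strand), the host of SNORD22, SNORD25 to SNORD28 and SNORD30, had the largest difference of the 10. SNHG1 had 18.0, 19.9 and 18.8 FPKM in Y483E replicates 1, 2 and 3, against 20.6, 25.7 and 23.9 FPKM in Y483F replicates 1, 2 and 3. Every Y483E library lay below every Y483F library, and the nearest were Y483E replicate 2 and Y483F replicate 1. The means were 18.9 ± 0.934 FPKM in Y483E and 23.4 ± 2.62 FPKM in Y483F (SD, n = 3 each), on 1212 to 1743 reads in Y483E and 1323 to 1829 reads in Y483F. The log2 difference was -0.29 ± 0.082 (SE) in limma (adjusted p 0.308), and -0.31 ± 0.081 in edgeR (adjusted p 0.175). DESeq2, which called 142 of the 11014 genes it gave an adjusted p (1.29%), called SNHG1 and no other host (-0.31 ± 0.087, adjusted p 0.0428). The authors' deposited table also lists it, with a log2 fold change of -0.31, an unadjusted p of 0.000443 and an adjusted p of 0.0495. That table and DESeq2 rest on the same counts and are not separate evidence. Without 1 library the limma difference of SNHG1 lay between -0.37 (without Y483F replicate 1) and -0.22 (without Y483F replicate 2).

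SNHG5 (ENSG00000203875, chr6:85660950-85678748, minus strand), the host of SNORD50B, went the other way. SNHG5 had 61.4, 73.1 and 68.4 FPKM in Y483E replicates 1, 2 and 3, against 63.7, 59.2 and 58.9 FPKM in Y483F replicates 1, 2 and 3. Y483E replicate 1 lay below Y483F replicate 1, so the lines overlapped, while Y483E replicates 2 and 3 lay above all 3 Y483F libraries. The log2 difference was 0.15 ± 0.069 (SE) in limma (adjusted p 0.425) and 0.15 ± 0.064 in edgeR (adjusted p 0.335). The authors' deposited table lists it at 0.16 with an adjusted p of 0.343, and these were the 2 hosts among the 1652 genes listed there. The largest unadjusted p in that list was 0.04999, so a listing means only an unadjusted p under 0.05. DESeq2 gave such a p to 1312 of the 11014 genes with an adjusted p.

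SNHG12 (ENSG00000197989, chr1:28578538-28583132, minus strand), the host of SNORA16A, SNORA44, SNORA61 and SNORD99, had the lowest mean of the 10. SNHG12 had 6.89, 6.08 and 4.96 FPKM in Y483E replicates 1, 2 and 3, against 5.49, 7.80 and 7.10 FPKM in Y483F replicates 1, 2 and 3. Y483E replicate 1 was the highest of its line and Y483F replicate 1 the lowest of its own, so the lines crossed between the numbers. Over all 6 libraries the log2 difference was -0.16 ± 0.14 (SE, limma adjusted p 0.677).

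SNHG3 and SNHG15 lay lower in Y483E on average, within the spread of the libraries. SNHG3 (ENSG00000242125, chr1:28505980-28510892, plus strand), the host of SNORA73A and SNORA73B, had 13.5, 13.4 and 12.6 FPKM in Y483E replicates 1, 2 and 3, against 12.1, 15.1 and 14.6 FPKM in Y483F replicates 1, 2 and 3. SNHG15 (ENSG00000232956, chr7:44983023-44986961, minus strand), the host of SNORA9, had 14.5, 16.4 and 14.7 FPKM in Y483E replicates 1, 2 and 3, against 14.2, 17.9 and 17.8 FPKM in Y483F replicates 1, 2 and 3. In both genes Y483F replicate 1 was the lowest library of the 6 and the other 2 Y483F libraries were the highest. The limma differences were -0.074 ± 0.082 for SNHG3 (adjusted p 0.751) and -0.11 ± 0.095 for SNHG15 (adjusted p 0.653).

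GAS5, ZFAS1 and SNHG6 were lowest in both libraries numbered 1, whatever the line. GAS5 (ENSG00000234741, chr1:173863900-173868882, minus strand), named for its accumulation in growth-arrested cells, had 25.4, 30.4 and 29.0 FPKM in Y483E replicates 1, 2 and 3, against 26.4, 33.6 and 29.0 FPKM in Y483F replicates 1, 2 and 3. ZFAS1 (ENSG00000177410, chr20:49278178-49295738, plus strand), named as the antisense partner of ZNFX1 and host of SNORD12, SNORD12B and SNORD12C, had 6.63, 9.94 and 9.19 FPKM in Y483E replicates 1, 2 and 3, against 7.81, 9.99 and 10.8 FPKM in Y483F replicates 1, 2 and 3. SNHG6 (ENSG00000245910, chr8:66921684-66926398, minus strand), the host of SNORD87, had 27.1, 34.8 and 31.8 FPKM in Y483E replicates 1, 2 and 3, against 28.4, 32.0 and 34.1 FPKM in Y483F replicates 1, 2 and 3. The lines overlapped in all of these, with limma differences of -0.064 ± 0.10 for GAS5 (adjusted p 0.823), -0.14 ± 0.16 for ZFAS1 (adjusted p 0.745) and -0.014 ± 0.10 for SNHG6 (adjusted p 0.968).

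SNHG7 and SNHG8, hosts of box H/ACA snoRNAs, were close to each other in level and close between the lines. SNHG7 (ENSG00000233016, chr9:136721366-136728184, minus strand), the host of SNORA17A and SNORA17B, had 30.2, 29.4 and 29.6 FPKM in Y483E replicates 1, 2 and 3, against 28.2, 28.7 and 29.2 FPKM in Y483F replicates 1, 2 and 3. Its lowest Y483E library stood just above its highest Y483F library, and the log2 difference was 0.049 ± 0.037 (SE, limma adjusted p 0.623). SNHG8 (ENSG00000269893, chr4:118278709-118279823, plus strand), the host of SNORA24, had 25.5, 30.1 and 28.2 FPKM in Y483E replicates 1, 2 and 3, against 25.2, 27.6 and 29.0 FPKM in Y483F replicates 1, 2 and 3. The lines overlapped, with a log2 difference of 0.033 ± 0.074 (limma adjusted p 0.886).

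**Figure D2:**
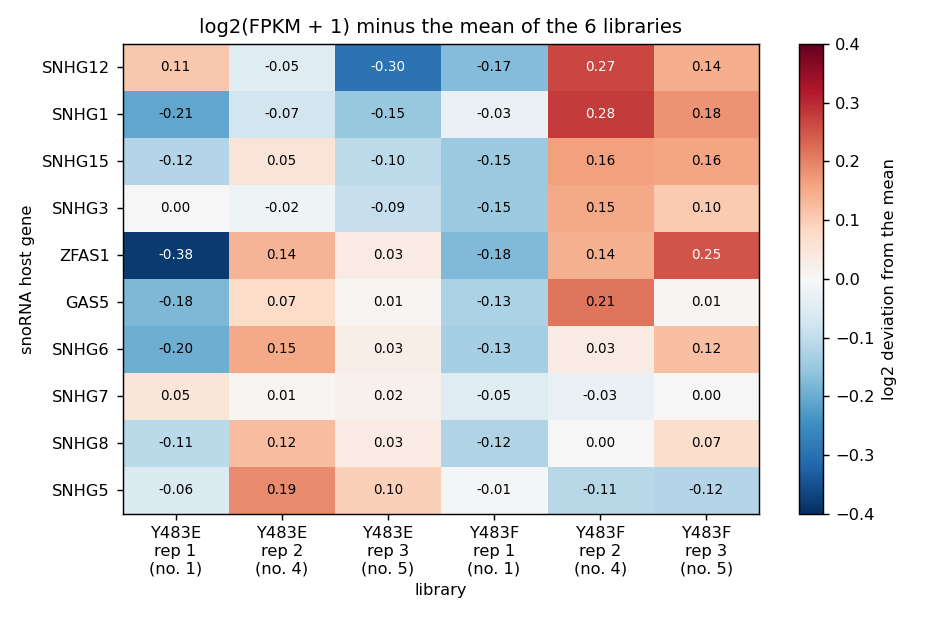
Heat map of log2(FPKM + 1) of each host minus its mean over the 6 libraries (columns, Y483E left, with the library number in brackets), red above and blue below the mean. SNHG1 was at -0.21, -0.07 and -0.15 in Y483E and at -0.03, 0.28 and 0.18 in Y483F, and ZFAS1 was lowest in Y483E replicate 1, at -0.38.

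GAS5, ZFAS1 and SNHG6 were lowest in both libraries numbered 1, and the comparison of the lines was also made within the numbers. Few genes were called for the numbers 4 and 5 over 1, 0 of 12833 in limma and 231 of 15992 (1.44%) in edgeR. The deviations of the 2 replicates 1 from the means of their lines correlated at 0.056. The edgeR fits and the test of the interaction were added after the values were seen. In the libraries numbered 4 and 5 alone, 2 against 2, limma called 733 of 12833 genes (5.71%) and 2 of 10 hosts. SNHG1 was lower in Y483E, with a log2 difference of -0.34 ± 0.051 (SE, adjusted p 0.0372), and SNHG5 was higher, at 0.26 ± 0.041 (adjusted p 0.0412). EdgeR on the recovered reads of these 4 libraries called 2454 of 16308 genes (15.0%) and 5 of 10 hosts, 1 higher and 4 lower in Y483E. SNHG5 rose by 0.26 ± 0.041 (adjusted p 0.000689 in edgeR). Lower were SNHG1 (-0.36 ± 0.052, adjusted p 0.000342), SNHG12 (-0.43 ± 0.097, adjusted p 0.0083), SNHG3 (-0.20 ± 0.059, adjusted p 0.0346) and SNHG15 (-0.20 ± 0.062, adjusted p 0.0457), all in edgeR. Limma did not call SNHG12, SNHG3 or SNHG15 in the same libraries (adjusted p 0.0821, 0.0780 and 0.119). Both fits have 2 residual degrees of freedom per gene and borrow the spread from the other genes. A term for the number in the fit of all 6 libraries led edgeR to call 155 genes (0.969%) and SNHG1 (-0.31 ± 0.054, adjusted p 0.0304).

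Between the replicates 1, with 1 library of each line and no test, 5 hosts were higher and 5 lower in Y483E. The log2 difference was 0.28 for SNHG12, 0.15 for SNHG3, 0.094 for SNHG7, 0.032 for SNHG15 and 0.015 for SNHG8. It was -0.051 for SNHG5, -0.052 for GAS5, -0.065 for SNHG6, -0.18 for SNHG1 and -0.21 for ZFAS1. In 5 hosts (SNHG12, SNHG3, SNHG15, SNHG5 and SNHG6) the sign thus differed from that in the libraries numbered 4 and 5, whereas SNHG1 was lower in Y483E in both. The interaction of line and number tests this difference itself. EdgeR called it for 368 of 15992 genes (2.30%) and for 2 of 10 hosts, SNHG12 (-0.76 ± 0.17, adjusted p 0.0298) and SNHG5 (0.30 ± 0.072, adjusted p 0.0400). For SNHG1 it was -0.18 ± 0.094 and not called (edgeR adjusted p 0.375). Limma called 8 of 12833 genes for the interaction (0.0623%) and 0 hosts. These fits take the single library of each line numbered 1 to vary as the others do, and without Y483F replicate 3 edgeR called neither host (adjusted p 0.0957 for SNHG12 and 0.171 for SNHG5).

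**Figure D3:**
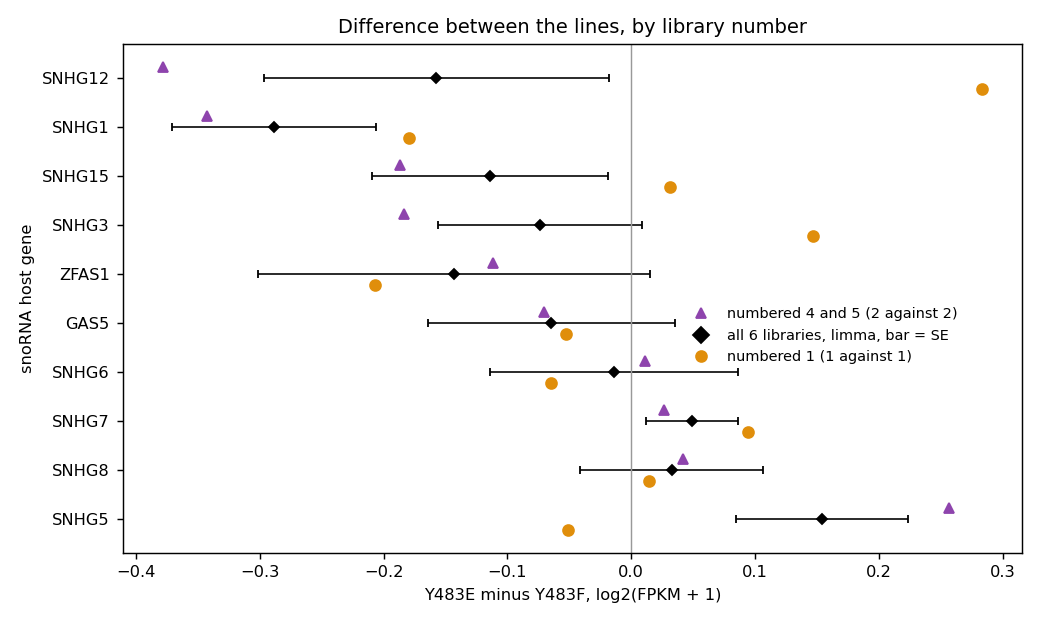
Y483E minus Y483F on the log2(FPKM + 1) scale for each host, in the libraries numbered 4 and 5 (triangles), in all 6 libraries (diamonds, bars give the limma SE) and between those numbered 1 (circles). SNHG12 lay at -0.38 in the libraries numbered 4 and 5 and at 0.28 between those numbered 1, and SNHG1 lay below 0 in both.

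Across the lines, in a fit with a term for the line, 10 of 10 hosts had a log2 difference above 0 for the libraries numbered 4 and 5 over those numbered 1, beside 5987 of 12833 genes tested. SNHG7 had 0.00025 ± 0.034 (limma adjusted p 0.998), and 6 hosts stayed above 0 whichever library was left out. SNHG5, SNHG12, SNHG3 and SNHG7 reached -0.11, -0.28, -0.054 and -0.034 in limma without 1 library. The median of the hosts was 0.17, beside -0.0094 over all genes tested and 0.15 over the 13 other noncoding snoRNA hosts described further on, of which 9 lay above 0. Limma called 0 of 12833 genes for this contrast (0%), with 2410 at an unadjusted p under 0.05. EdgeR called 231 of 15992 genes (1.44%) and 1 host, ZFAS1, which was higher by 0.48 ± 0.086 in the libraries numbered 4 and 5 (adjusted p 0.0287). ZFAS1 had 9.94, 9.19, 9.99 and 10.8 FPKM in the libraries numbered 4 and 5, against 6.63 and 7.81 FPKM in those numbered 1, and these did not overlap. They did not overlap in 5 of 10 hosts (GAS5, SNHG6, SNHG8, SNHG15 and ZFAS1), with those numbered 4 and 5 above in each. Of all genes tested, 9.78% lay above in this way, 15.9% below and 25.6% in either direction. In limma the difference of ZFAS1 was 0.42 ± 0.057 (adjusted p 0.119). Without Y483E replicate 2 or Y483F replicate 3 edgeR did not call ZFAS1 (adjusted p 0.183 and 0.131). Leaving out Y483E replicate 1 leaves 1 library numbered 1, and the edgeR difference of ZFAS1 was then 0.42.

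Other measures also differed between the libraries. Mitochondrially encoded genes took 2.11, 2.15 and 1.23% of the reads in Y483E replicates 1, 2 and 3, and 2.05, 3.27 and 3.11% in Y483F replicates 1, 2 and 3. The 59 snoRNA genes tested outside the hosts had median deviations from their 6-library mean of -0.24, -0.10 and -0.33 (log2) in Y483E replicates 1, 2 and 3, and of -0.073, 0.32 and 0.27 in Y483F replicates 1, 2 and 3. Together these snoRNA genes held only 564 to 973 reads per library. Y483F replicates 2 and 3 were the 2 highest libraries in both measures, as they were for SNHG1, SNHG3, SNHG12, SNHG15 and ZFAS1. Y483E replicate 3 was the lowest in both measures, as for SNHG12 but not for SNHG1, SNHG3, SNHG15 or ZFAS1. The part of these measures in the host differences was not tested.

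Few or no reads were assigned to the snoRNA genes inside the hosts. Of the 25 records, 20 (17 loci) lay wholly inside annotated exons of their host, and these were listed at 0 reads in all 6 libraries. The sources used here do not give how reads over overlapping genes were assigned, so those zeros set no limit on the level of these snoRNAs. Among the other 5, SNORD30, with 34 of its 70 bases in host exons, also had 0 reads. SNORA73B had 12, 13 and 10 reads in Y483E replicates 1, 2 and 3, against 4, 16 and 9 reads in Y483F replicates 1, 2 and 3. SNORD99 had 12, 11 and 6 reads in Y483E replicates 1, 2 and 3, against 8, 16 and 7 reads in Y483F replicates 1, 2 and 3. The lines overlapped in both. SNORD12B had 7 reads and SNORD12C 4 reads in all 6 libraries together.

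The hosts differ in how much of their span is annotated as exon. ZFAS1 (12.8%), SNHG5 (15.8%) and SNHG6 (26.4%) had low exonic shares, and SNHG7 (63.7%) and GAS5 (72.9%) intermediate ones. SNHG8 (82.8%), SNHG3 (83.2%), SNHG15 (92.6%), SNHG12 (92.8%) and SNHG1 (95.6%) had the highest. The 4 hosts with the highest shares were the 4 that edgeR called lower in Y483E in the libraries numbered 4 and 5, a pattern picked out after the values were seen. SNHG8, with nearly the share of SNHG3, lay at 0.042 there. Over the 10 hosts, Spearman's rho of the exonic share and the log2 difference was -0.72 in the libraries numbered 4 and 5 and 0.42 between those numbered 1. The points come from the same libraries, and rho is given as a description.

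**Figure D4:**
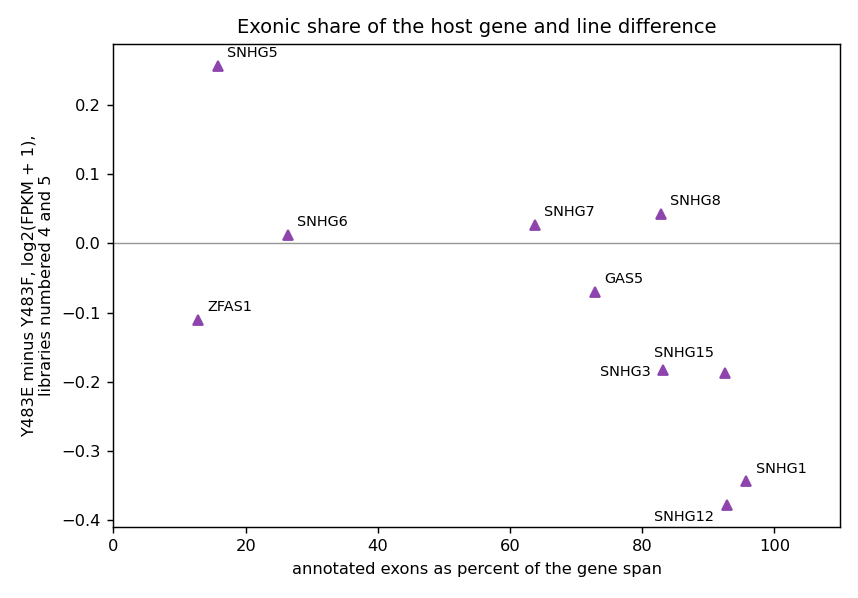
Log2 difference (Y483E minus Y483F) of each host in the libraries numbered 4 and 5 against the percent of its span that is annotated as exon. SNHG1, SNHG12, SNHG15 and SNHG3, with shares of 83.2 to 95.6%, lie at the bottom right, and SNHG5, with 15.8%, lies at the top left.

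Several hosts share sequence or a start region with a protein-coding gene, and the protocol text names both a directional and a non-directional library, so reads of overlapping genes on opposite strands may not be told apart. SNHG1 lies head to head with SLC3A2, the heavy chain of amino acid transporters, across a gap of 188 bases between the genes of the table. The RefSeq start of SNHG1, shown in its window above, lies 217 bases from the table's start of SLC3A2. SLC3A2 had 40.5, 42.7 and 41.8 FPKM in Y483E replicates 1, 2 and 3, against 39.3, 35.8 and 38.3 FPKM in Y483F replicates 1, 2 and 3. All Y483E libraries were above all Y483F libraries (exact permutation p 0.1), opposite to SNHG1. That held for 9.72% of all genes tested. The log2 difference of SLC3A2 was 0.14 ± 0.048 (SE, limma adjusted p 0.353), and in the libraries numbered 4 and 5 it was 0.18 ± 0.040 (edgeR adjusted p 0.0061). Limma did not call SLC3A2 in the same libraries (adjusted p 0.0688).

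**Figure D5:**
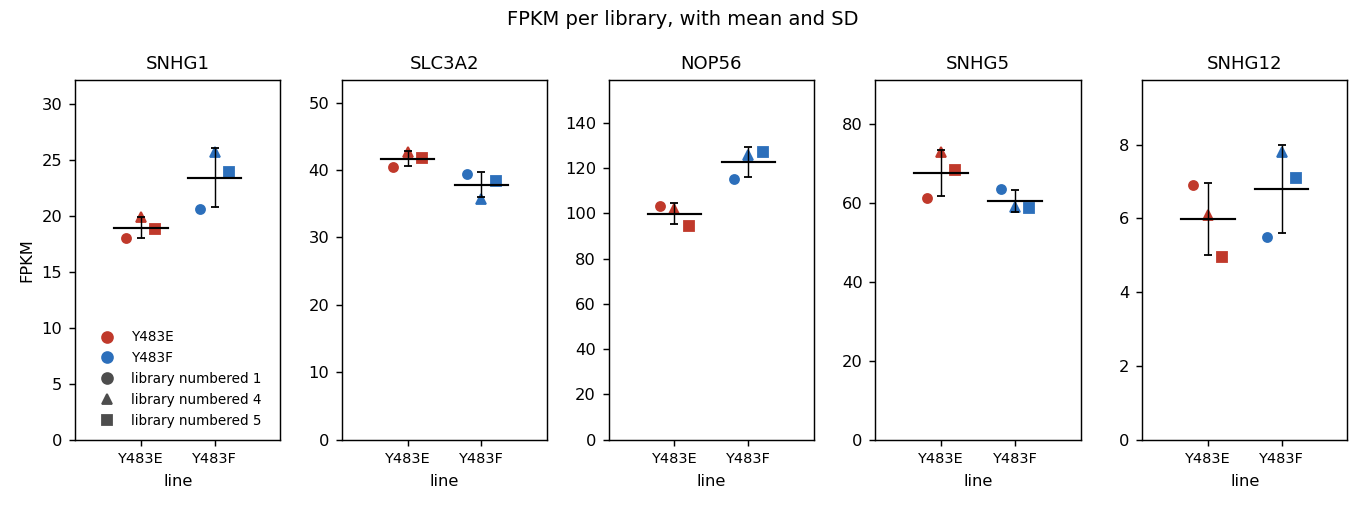
FPKM per library (axes start at 0) of SNHG1, SLC3A2, NOP56, SNHG5 and SNHG12 in Y483E (left, red) and Y483F (right, blue), with the mean (line) and SD (bar) of 3 libraries. SNHG1 and NOP56 were lower and SLC3A2 was higher in every Y483E library than in every Y483F library, and SNHG5 and SNHG12 overlapped.

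The other neighbours gave no call over the 6 libraries. RCC1, a regulator of chromosome condensation whose exons share 242 bases on the same strand with SNHG3, differed by 0.015 ± 0.044 (limma adjusted p 0.914), and reads over those bases cannot be told apart. ZFAS1 shared 46.9% of its exonic bases with other genes, among them 249 with ZNFX1 on the opposite strand. ZNFX1 differed by -0.061 ± 0.077 (limma adjusted p 0.781). FAM69B, which shares 1094 opposite-strand bases with SNHG7, differed by -0.14 ± 0.082 (limma adjusted p 0.517). MCMDC2, which shares 365 with SNHG6, was at 0.108 FPKM at most. TRNAU1AP, a protein of selenocysteine tRNA, shares 8 bases with SNHG12 and differed by 0.050 ± 0.059 (limma adjusted p 0.762). PRSS12, a protease gene 215 bases from SNHG8, differed by 0.22 ± 0.12 (limma adjusted p 0.488) and was higher in Y483E by 0.29 ± 0.072 in the libraries numbered 4 and 5 (edgeR adjusted p 0.0156). ZBTB37, whose start lies 800 bases from that of GAS5, had a mean under 1 FPKM in each line.

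Other noncoding snoRNA hosts lay on both sides of 0 as well. Of 22 names listed, 19 were found, and 13 had a mean of at least 1 FPKM; the others averaged 0.614 FPKM or less. Of the 13, 6 were higher and 7 lower in Y483E, with a median log2 difference of -0.0092, and limma called 0 over the 6 libraries. EdgeR, which tested 14, called 2 higher and 3 lower in the libraries numbered 4 and 5, beside 15.0% of all genes. SNHG17 had 13.9, 13.3 and 13.8 FPKM in Y483E replicates 1, 2 and 3, against 14.5, 19.3 and 18.4 FPKM in Y483F replicates 1, 2 and 3. All its Y483E libraries were lower, as for SNHG1, with a log2 difference of -0.32 ± 0.098 (limma adjusted p 0.315). The same held for SNHG4 and SNHG20. In LRRC75A-AS1, DANCR and EPB41L4A-AS1, also of this list, all Y483E libraries were higher. Of all genes tested, 7.37% lay lower in this way and 9.72% higher. SNHG4 and SNHG20, the other 2 called lower in the libraries numbered 4 and 5 (-0.68 and -0.45, edgeR adjusted p 8.1e-05 and 0.0025), had limma differences of -0.43 ± 0.15 and -0.29 ± 0.096 over the 6. SNHG17, SNHG4 and SNHG20 were picked out for these calls after their values were seen. LRRC75A-AS1 and DANCR were higher in the libraries numbered 4 and 5 (0.26 and 0.24, edgeR adjusted p 0.000251 and 0.0041). LRRC75A-AS1, also known as SNHG29, had 49.9, 53.2 and 52.9 FPKM in Y483E replicates 1, 2 and 3, against 48.5, 43.8 and 44.4 FPKM in Y483F replicates 1, 2 and 3. SNHG19 and C6orf48, the other 2 of the 4 most abundant, differed by -0.047 ± 0.10 and 0.14 ± 0.080 (limma adjusted p 0.882 and 0.511).

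Protein-coding snoRNA hosts, whose mRNAs carry snoRNAs in their introns, were called in both directions within the libraries numbered 4 and 5. Limma called 0 of 21 over the 6 libraries (11 higher, 10 lower, median 0.018), and edgeR called 9 higher and 7 lower in the libraries numbered 4 and 5, where it called 1153 higher and 1301 lower of 16308 genes (15.0%). In those libraries limma called 3 of the 21 higher and 5 lower, beside 5.71% of all genes. Among the most abundant, the elongation factor EEF2 was higher there by 0.19 and the ribosomal protein genes RPL13A by 0.27 and RPL7A by 0.17 (edgeR adjusted p 0.0067, 0.000409 and 0.0126). TOP mRNAs other than ribosomal proteins, which share the pyrimidine start, had 14 of 16 tested genes above 0 and 2 below over the 6 libraries, beside 6777 of 12833 above 0 among all genes, with a median of 0.074 and 0 called by limma. EdgeR called 9 of them higher and 1 lower in the libraries numbered 4 and 5, against the same 15.0% of all genes. Limma called 2 of them higher and 0 lower in the same libraries, beside 5.71% of all genes. EEF2, EEF1B2, TPT1 and RACK1 are in both lists, so the lists are not separate observations. EEF1A1, the most abundant, had 1389, 1482 and 1498 FPKM in Y483E replicates 1, 2 and 3, against 1430, 1231 and 1296 FPKM in Y483F replicates 1, 2 and 3. NPM1 and HNRNPA1 were not called there (edgeR adjusted p 0.482 and 0.280).

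The snoRNP proteins package snoRNAs, and the nonsense-mediated decay factors degrade host transcripts. Calls in both lists were near the 15.0% that edgeR called among all genes in the libraries numbered 4 and 5. Of 16 snoRNP core and assembly genes, 7 lay above and 9 below 0 over the 6 libraries (median -0.021), and limma called 0. EdgeR called 2 higher and 1 lower in the libraries numbered 4 and 5. NOP56, a core box C/D protein and itself a snoRNA host, had 103, 102 and 94.4 FPKM in Y483E replicates 1, 2 and 3, against 115, 126 and 127 FPKM in Y483F replicates 1, 2 and 3. All its Y483E libraries were below all its Y483F libraries, as for 7.37% of all genes tested. The log2 difference of NOP56 was -0.30 ± 0.057 (limma adjusted p 0.257), and edgeR called it lower in the libraries numbered 4 and 5 (-0.37, adjusted p 8.1e-05). FBL, the methyltransferase of the same particle, differed by 0.075 ± 0.044 (limma adjusted p 0.525), and the H/ACA proteins NHP2 and NOP10 by 0.11 ± 0.053 and 0.052 ± 0.052 (limma adjusted p 0.440 and 0.723). Of 14 nonsense-mediated decay genes, 7 lay on each side of 0 (median -0.0025), and limma called 0. EdgeR called 0 of them higher and 2 lower in the libraries numbered 4 and 5. The 4 most abundant, MAGOH, SMG5, EIF4A3 and CASC3, had limma differences between -0.055 and 0.035.

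The hosts' median deviation in each library was compared with the profiles of single genes by the root-mean-square distance over the 6 libraries. The hosts did not all follow that median. That median was at -0.11, 0.063 and 0.012 (log2) in Y483E replicates 1, 2 and 3, and at -0.13, 0.15 and 0.11 in Y483F replicates 1, 2 and 3. Both replicates 1 were thus the low libraries, and Y483F replicates 2 and 3 the highest. The nearest of 12823 other tested genes were the noncoding gene DUBR (0.022) and the protein-coding genes HSD17B1 (0.024), MTFR1L (0.024), C19orf54 (0.025) and PRAG1 (0.025), beside a median distance of 0.146. Among the hosts, SNHG15 (0.052) and GAS5 (0.058) lay nearest to the median and SNHG12 (0.17) and SNHG5 (0.16) farthest, beyond the median distance of the other genes.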

How the data were processed

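RNA was sequenced in 6 libraries of HEK293 cells, 3 per line. The authors deposited FPKM values for all genes, per the file headers. A second deposited table lists 1652 genes with the authors' raw read counts, a signal (counts divided by 1 size factor per library), log2 fold changes and p-values. It holds only genes with an unadjusted p under 0.05. The submitters' processing notes name featureCounts 1.5.0-p3, HISAT2 2.0.5, DESeq, DESeq2 and StringTie 1.3.3b; their roles and the genome build are not given in the sources used here.

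Limma 3.58.1 (two-sided, trend) was run on log2(FPKM + 1), keeping genes that averaged 1 FPKM or more, with Benjamini-Hochberg adjustment over all of them. Differences are Y483E minus Y483F, on a scale that understates the change of low genes. Multiplying FPKM by gene length and a library total derived from the listed counts gave whole reads, within 0.01 read, for 100% of values above 0. They equalled the authors' counts for 1652 of 1652 listed genes. That total was 1.90443e+07 times the authors' size factor in each library, and not the plain sum of reads. The FPKM values thus already carry these size factors. EdgeR 4.0.16 (TMM, filterByExpr) and DESeq2 1.42.0 were added on these reads after the data were seen, and all were tested on simulated data. Depth, given with the results, limits the precision of genes with few reads.

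Members and lists were chosen with earlier results of these data known. The named genes were the 10 hosts, protein-coding neighbours within 2 kb, snoRNA genes inside the hosts, the 4 most abundant genes of each context list and the 5 nearest profiles; some of these are not reported here. Other settings tried were pseudocounts, filters, scaling, array weights, a replicate block, a term for the number (1 against 4 and 5) and leaving out libraries. Same-numbered libraries of the 2 lines had correlated deviations of 0.056, 0.14 and -0.095, so no pairing was used.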

Additional observations from a re-analysis of the deposited data

Results flagged for a closer look

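Both results below were picked out because the difference between the lines depended on the library number, by edgeR's test of the interaction with adjustment over 15992 genes. For SNHG5 the log2 difference (Y483E minus Y483F) in the libraries numbered 4 and 5 exceeded that between the libraries numbered 1 by 0.30 ± 0.072 (SE, adjusted p 0.0400; limma adjusted p 0.228). For SNHG12 it was lower by -0.76 ± 0.17 (adjusted p 0.0298; limma adjusted p 0.238). Both rest on 1 library per line numbered 1, and edgeR called neither without Y483F replicate 3.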

How the results depend on the processing

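Over all 6 libraries limma called 0 genes and 0 hosts. That held with a filter at 5 FPKM or none, pseudocounts of 0.1 and 0.5, median-of-ratios scaling, a term for the number (1 against 4 and 5), the replicate block and each left-out library. The FPKM values already carry the authors' size factors, so median-of-ratios scaling could change little and is no separate check. With it the limma difference of SNHG1 was -0.288443, beside -0.288464 without. Array weights called 1888 genes (14.7%) and 2 hosts, SNHG1 lower and SNHG5 higher in Y483E; limma in the libraries numbered 4 and 5 called 733 and 2. On the recovered reads, edgeR called 7 genes, 6 with the replicate block (0 hosts by either tool), 155 with the number term (1 host, SNHG1, adjusted p 0.0304), 2454 in the libraries numbered 4 and 5 (5 hosts), and 1 to 1000 without 1 library (0 to 1 hosts, SNHG1 without Y483F replicate 1). DESeq2 called 142 and 1 host. For the libraries numbered 4 and 5 over those numbered 1, edgeR called 231 genes and 1 host, and without 1 library 13 to 1408 genes and 0 to 6 hosts (limma 0 to 22 genes, 0 hosts). For the interaction, edgeR called 368 genes and 2 hosts, and without 1 library 54 to 1211 genes and 0 to 3 hosts (limma 8 genes, 5 to 169 without 1 library, 0 hosts). Not every library correlated best with its own number across the lines: Y483E replicate 2 did so with Y483F replicate 3 (0.206).

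The hosts' median log2 difference lay below 0 in 25 of 26 alternatives. Without 1 library it ran from -0.15 to 0.011 in limma, with 0.011 without Y483E replicate 1, and from -0.16 to -0.0014 in edgeR. SNHG7 kept its sign and its side of the threshold in 26 of 26 alternatives, and SNHG1, SNHG3, SNHG5, SNHG12 and SNHG15 kept their sign in all 26. The sign of SNHG6 turned in the libraries numbered 4 and 5 (0.011 in limma, 0.010 in edgeR). Without 1 library it ran from -0.093 to 0.081 in limma and from -0.11 to 0.077 in edgeR. Without 1 library the ranges that crossed 0 were, in limma, -0.14 to 0.027 for GAS5, -0.27 to 0.013 for ZFAS1 and -0.020 to 0.094 for SNHG8, and in edgeR -0.15 to 0.031 for GAS5 and -0.032 to 0.093 for SNHG8 (-0.28 to -0.0019 for ZFAS1). The causes were not tested.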
